A study of Mus musculus with 25 samples.

Results

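The interferon regulatory factors (IRFs) were followed through 9 macrophage conditions. The members are Irf1, Irf2, Irf3, Irf4, Irf5, Irf7, Irf8 and Irf9, taken by gene symbol, and they make up 8 of the 24411 symbols in the count files. Poly(A) or ribosomal RNA-depleted transcripts (the labels give the former as the molecule and the latter in the protocol) were sequenced from bone marrow-derived macrophages (BMDMs) of C57BL/6 mice and from RAW264.7, a mouse macrophage cell line.

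BMDMs were grown from marrow for 4 days with 25 ng/ml macrophage colony-stimulating factor (M-CSF), which the control cells received too. There were 3 samples each of control BMDMs, of BMDMs with 100 U/ml IFN-γ and 100 ng/ml LPS for 1, 4, 12 and 24 h (called IFN-γ-LPS here), and of BMDMs with 10 ng/ml IL-4 or 10 ng/ml IL-13 for 12 h. RAW264.7 cells were left untreated or given 100 ng/ml LPS without IFN-γ for 4 h, with 2 samples each. The study calls the IFN-γ-LPS samples IFN-γ-primed, whereas the labels give 1 time for both agents, and whether IFN-γ was given before LPS, and for how long, was not given in the sources used here. The stated hours may therefore not be the whole exposure to IFN-γ. The sex and age of the mice were not given in the sources used here. The control BMDMs were labelled as cultured for 4 h, so the 1, 12 and 24 h samples and both cytokine groups had no control of their own time, and all BMDM comparisons with control share those 3 samples. The study describes its samples as biological replicates from separate RNA preparations.

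IRFs are transcription factors that share an amino-terminal DNA-binding domain and recognise interferon-stimulated response elements and related sequences. IRF3, IRF5 and IRF7 wait in the cytoplasm and are activated by phosphorylation downstream of Toll-like receptors and nucleic acid sensors, whereas IRF9 joins STAT2 in carrying the type I interferon signal. IRF1, IRF2 and IRF8 act in the IFN-γ response and in myeloid development, and IRF4 is tied to alternative macrophage activation by IL-4 and IL-13. RNA-seq shows the level of the mRNA and neither phosphorylation nor location of the protein.

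Because IFN-γ acts on gamma-activated sites (GAS) and IL-4 and IL-13 act through STAT6, promoters of some members are shown first. They were chosen partly by their matches and partly by the change of the gene. Each stretch is the 250 bases before the first RefSeq start (GRCm38.p6, the patch release of mm10), 5′ to 3′ on the strand of the gene. Capitals mark matches to any of 5 patterns searched on both strands, where N is any base: GAS (TTCNNNGAA), a STAT6 site (TTCNNNNGAA), the core of the interferon-stimulated response element (GAAANNGAA), a κB core (GGGNNNTTC) and a core bound by PU.1 (GAGGAAG). Irf1 and Irf8 are shown for their GAS matches, Irf2 as the member that matched 4 of the 5 patterns, Irf7 as the member with the largest rise, and Irf4 as the member raised most by IL-13.
Irf1 (chr11:53769764-53770013, + strand): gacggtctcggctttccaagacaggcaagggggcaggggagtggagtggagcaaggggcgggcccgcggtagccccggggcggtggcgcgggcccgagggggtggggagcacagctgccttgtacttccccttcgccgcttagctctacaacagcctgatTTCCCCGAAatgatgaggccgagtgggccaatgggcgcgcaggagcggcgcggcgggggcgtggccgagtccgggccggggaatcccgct
Irf8 (chr8:120736108-120736357, + strand): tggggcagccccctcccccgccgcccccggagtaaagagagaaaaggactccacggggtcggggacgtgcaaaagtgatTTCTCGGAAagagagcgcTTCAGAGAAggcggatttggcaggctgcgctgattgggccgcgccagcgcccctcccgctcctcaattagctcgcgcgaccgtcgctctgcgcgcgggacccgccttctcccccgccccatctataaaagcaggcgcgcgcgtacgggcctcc
Irf2 (chr8:46739495-46739744, + strand): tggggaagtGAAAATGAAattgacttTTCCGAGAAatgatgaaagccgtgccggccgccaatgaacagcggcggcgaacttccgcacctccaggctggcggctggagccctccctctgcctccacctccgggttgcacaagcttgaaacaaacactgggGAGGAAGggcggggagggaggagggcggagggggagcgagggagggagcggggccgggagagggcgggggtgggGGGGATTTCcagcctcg
Irf7 (chr7:141266425-141266674, - strand): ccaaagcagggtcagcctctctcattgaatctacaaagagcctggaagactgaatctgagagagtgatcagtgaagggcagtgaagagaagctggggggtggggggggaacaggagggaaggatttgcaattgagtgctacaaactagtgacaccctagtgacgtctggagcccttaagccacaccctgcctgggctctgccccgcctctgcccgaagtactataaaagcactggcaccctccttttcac
Irf4 (chr13:30748983-30749232, + strand): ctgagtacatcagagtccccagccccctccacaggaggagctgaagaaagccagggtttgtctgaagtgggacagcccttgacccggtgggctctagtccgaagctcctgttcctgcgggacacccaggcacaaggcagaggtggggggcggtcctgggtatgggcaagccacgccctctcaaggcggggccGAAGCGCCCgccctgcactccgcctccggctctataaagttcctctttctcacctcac

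The Irf1 promoter held 1 GAS match, TTCCCCGAA, from 90 to 82 bases before the start. Irf8 held 2, TTCTCGGAA at 171 to 163 bases and TTCAGAGAA at 153 to 145 bases before the start. Irf2 held a GAS match, TTCCGAGAA, beginning 224 bases before the start, together with an interferon-stimulated response element core, GAAAATGAA, a κB core, GGGGATTTC, and a PU.1 core. Irf4 had a κB core on the opposite strand and Irf9 a PU.1 core before its second start. No pattern matched before the starts of Irf3, Irf5 and Irf7, and no match overlapped another. All 8 members matched RefSeq, with 11 starts between them. Among all 32851 promoter windows of that length, 7.02% held GAS, 5.85% the STAT6 site, 7.13% the response element core, 11.8% the κB core and 10.6% the PU.1 core. A match describes the letters only, and binding was not measured.

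In mm10, Irf1 lies at chr11:53770014-53778374, Irf2 at chr8:46739732-46847458, Irf3 at chr7:44997648-45002848, Irf4 at chr13:30749226-30766976, Irf5 at chr6:29526625-29541871, Irf8 at chr8:120736358-120756694 and Irf9 at chr14:55603571-55610030, all on the + strand. Irf7 lies at chr7:141262706-141266481 on the - strand. All are annotated as protein-coding genes, and reads over their exons were counted on the sense strand.

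Reads on genes, without the ribosomal precursor Rn45s, numbered 1502618 to 2532496 per sample (median 1776162). Levels are given as CPM, read counts scaled to a common library total, after removal of Rn45s and scaling by trimmed mean of M-values (TMM), and differences as log2 fold changes from edgeR. A change was called at an adjusted p of at most 0.01. Macrophage markers summed to 8528 to 32910 CPM in all samples, and the macrophage label held in both cell types, except that Mertk had 0 reads in RAW264.7 cells. Most of the sum was Lyz2, with means of 20580 CPM in BMDM control and 6489 CPM in RAW264.7 control. Adgre1 (968 and 76.4 CPM) and Cd68 (859 and 186 CPM) were also lower in RAW264.7 control. Cd14 (287 and 1211 CPM) and Fcgr1 (54.7 and 160 CPM) were higher there. Markers of other cells were lower. The fibroblast markers Col1a1, Col3a1 and Dcn had the highest sum of these, 25.6 to 58.45 CPM over the BMDM groups, and were at 0 in all RAW264.7 samples, so they differ in every comparison of BMDMs with RAW264.7 cells. Of the T cell markers, Cd3e, Cd3d and Cd8a were at 0 and Cd4 supplied the sum, and the 3 erythroid markers were at 0. Neutrophil markers, mainly S100a8 and S100a9, summed to 9.22 to 18.2 CPM in control BMDMs and to 21.9 to 46.8 CPM with IFN-γ-LPS, while Elane and Mpo stayed at or near 0. Dendritic cell markers summed to at most 1.09 CPM in control and to 13.3 to 25.3 CPM at 12 h, nearly all of it Ccr7, with Flt3 and Siglech at 0 in these samples. The part of these cells in the IRF levels was not tested. In bulk RNA, fewer cells that express a gene and less RNA per cell cannot be told apart. Antisense reads of Rn45s, relative to its sense reads, separated the 12 libraries of control, 1, 4 and 12 h from the other 9 BMDM libraries (24 h and both cytokines). The labels name no batch, and this library difference cannot be told apart from the treatment in comparisons of 24 h, IL-4 or IL-13 with control or of 24 h with 12 h. The RAW264.7 libraries also lay below control BMDMs in this measure.

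**Figure D1:**
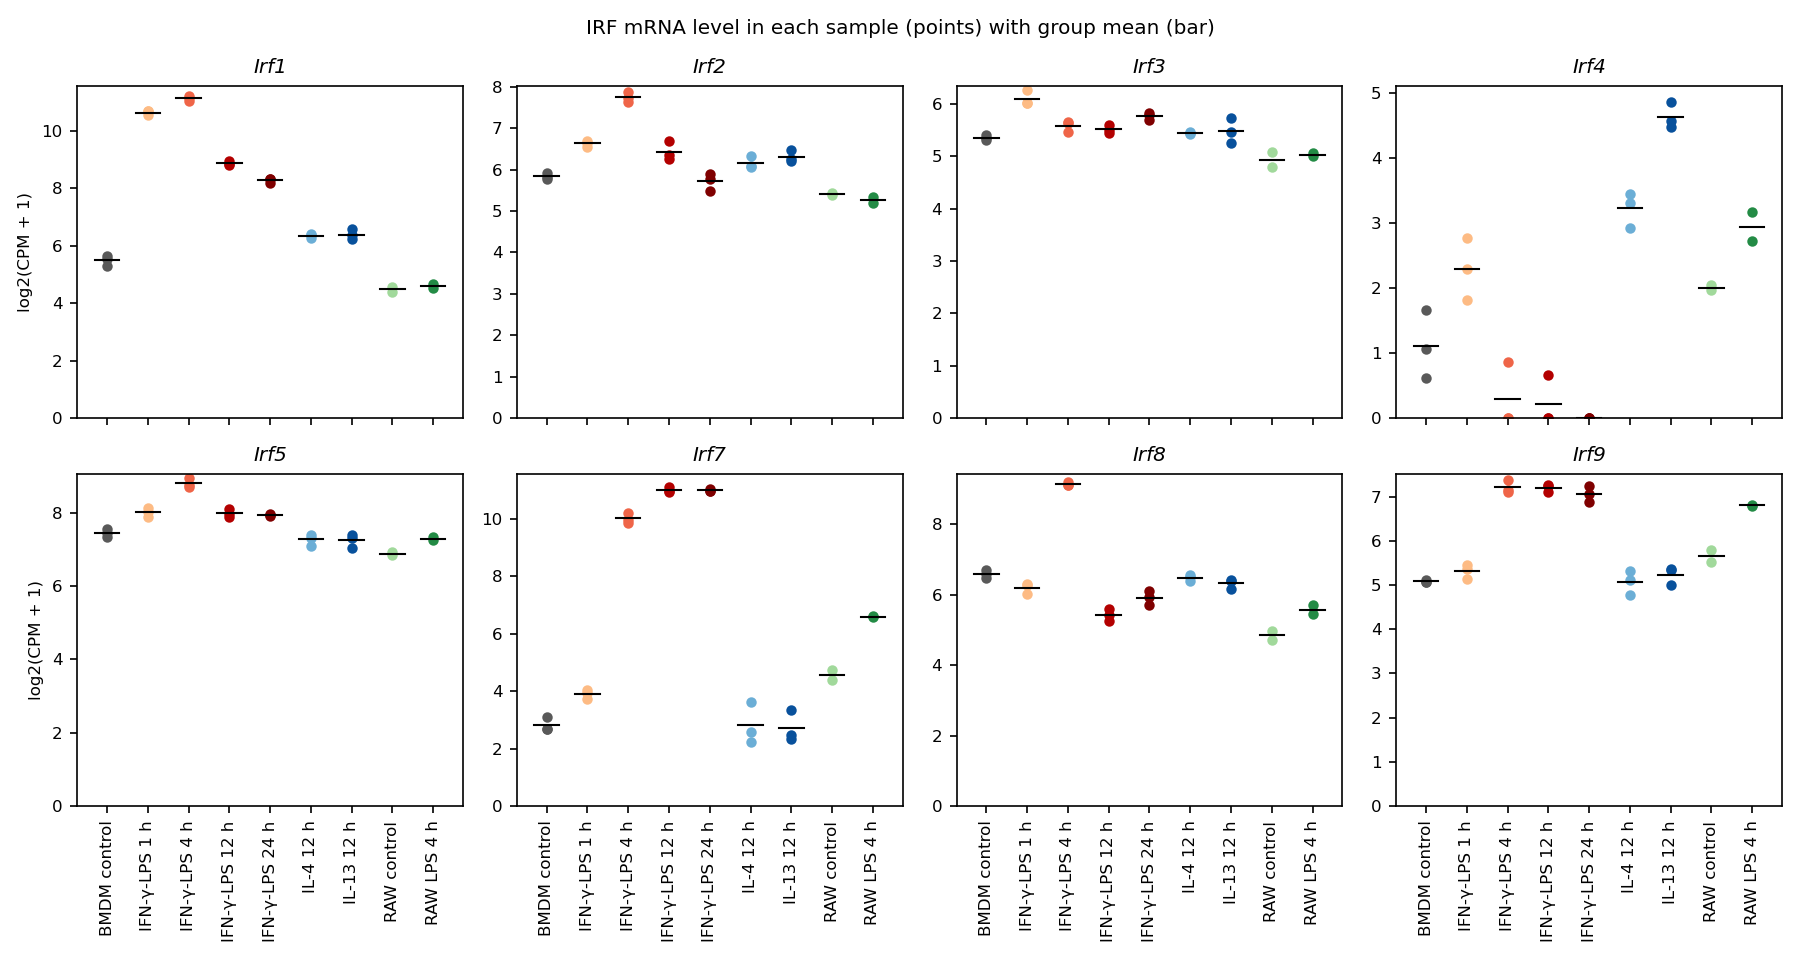
Level of each IRF in every sample as log2(CPM + 1), by condition; points are samples, bars are group means, and each panel has its own vertical scale. Irf1 and Irf7 span the widest range, Irf8 is high at 4 h only, and Irf4 is highest with IL-13 and at 0 in all 3 samples at 24 h of IFN-γ-LPS.

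At rest, Irf5 led the family. Per kilobase of exon, which allows levels to be compared between genes, Irf5 was at 59.9 CPM per kb in control BMDMs and gave 53.5% ± 1.38 (SD, n = 3) of the summed family level. Irf8 followed with 12.1% ± 0.747, Irf3 with 10.4% ± 0.457 and Irf1 with 9.90% ± 0.683. Irf7 gave 1.45% and Irf4 0.224%. The family sum, 112 ± 6.44 CPM per kb in control, rose to 541 ± 24.9 after 1 h of IFN-γ-LPS and to 1148 ± 73.1 after 4 h, and stood at 809.7 ± 53.1 after 12 h and 757 ± 19.3 after 24 h.

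The leading member changed with time. Irf1 gave 73.3% ± 1.16 of the family at 1 h and 49.4% ± 2.13 at 4 h, and Irf7 gave 67.6% ± 0.593 at 12 h and 71.2% ± 0.465 at 24 h. In IL-4, IL-13 and both RAW264.7 groups, Irf5 kept the first place, with 45.2%, 43.1%, 50.5% and 42.1%. The exon length takes in all annotated isoforms, so the shares would shift if a short isoform prevailed.

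**Figure D2:**
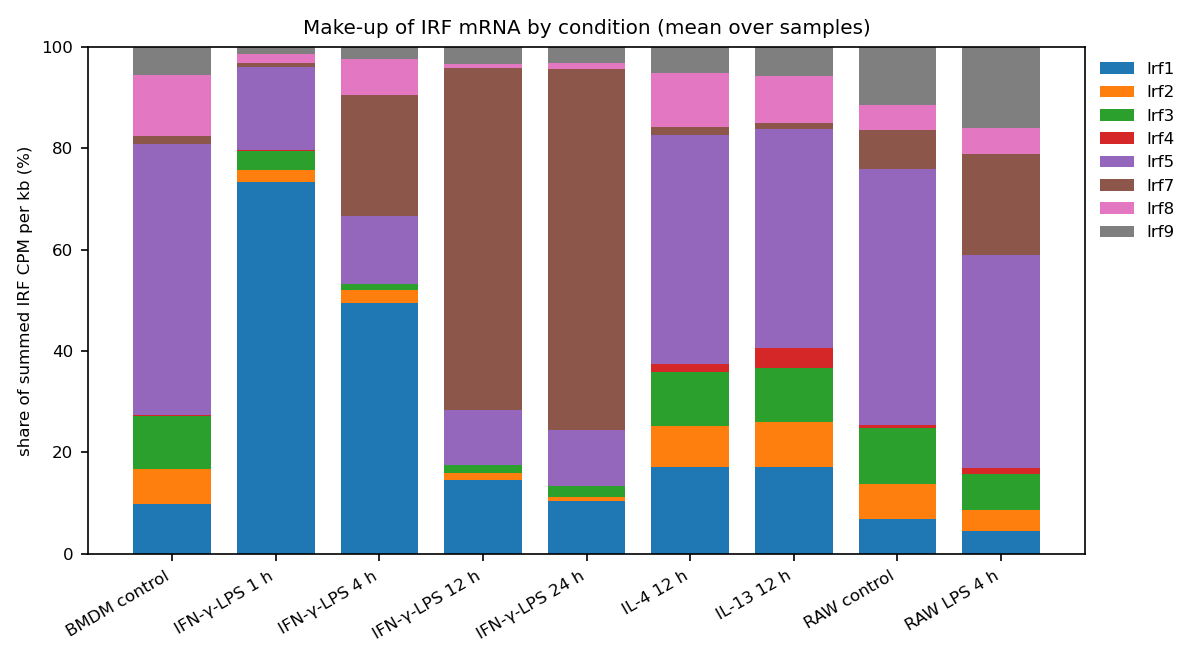
Share of each IRF in the summed CPM per kb of the family, as the mean over the samples of each condition (%). Irf5 fills 53.5% in control BMDMs, Irf1 73.3% at 1 h and Irf7 71.2% at 24 h.

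The first question was how each member followed IFN-γ-LPS through time. At 1 h, 6 of the 7 members tested were called against control, 5 higher and Irf8 lower, while 26.0% of all 9568 genes tested were called. At 4 h, 6 of 7 were called, all higher, against 51.5% of all genes, and at 12 h 6 of 7 against 47.3%. At 24 h, 6 of 7 were called against 45.2% of all genes. Irf4 did not pass the filter on low counts in this set. Among later steps, all 7 were called between 1 and 4 h (38.9% of all genes), 5 of 7 between 4 and 12 h (35.9%) and 3 of 7 between 12 and 24 h (14.2%). These comparisons share samples and are not separate evidence of one another. Without TMM scaling the median log2 change of all genes moved by -0.19 and -0.53 at the first and second time point, and by -0.31 and -0.22 at 12 and 24 h, so small changes in this set depend on the scaling.

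**Figure D3:**
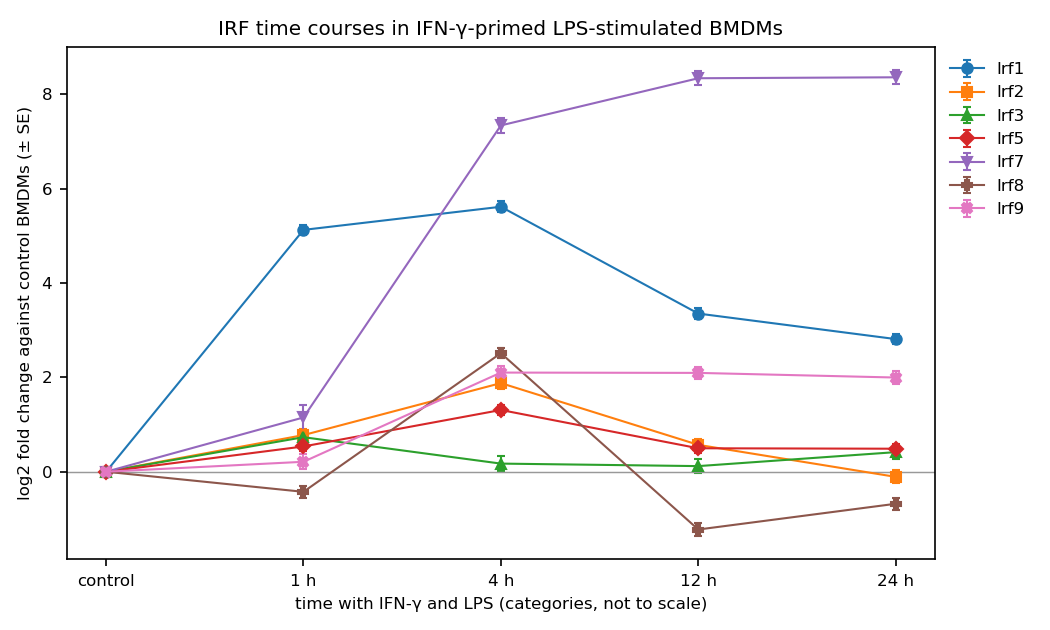
Log2 fold change (± SE from the edgeR fit, 3 samples per group) of 7 IRFs against control BMDMs, by time of IFN-γ-LPS. Irf1 peaks at 4 h, Irf7 keeps its height from 12 to 24 h, and Irf8 crosses from below 0 to 2.51 and back below 0.

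Irf1, an activator named for its role at the interferon-β gene, was at 48.8, 45.03 and 38.5 CPM in the 3 control samples. At 1 h it was at 1477, 1627 and 1629 CPM and at 4 h at 2279, 2375 and 2108 CPM. It stood at 442, 461 and 496 CPM at 12 h and 292, 321 and 321 CPM at 24 h. The groups did not overlap at any time, and 24 h remained well above control. Irf1 rose by 5.13 ± 0.11 (SE, adjusted p = 2.90e-37) on the log2 scale at 1 h, a 34.9-fold change. At 4 h the log2 fold change was 5.62 ± 0.11 (SE, adjusted p = 4.37e-39), and it was 3.35 ± 0.11 at 12 h and 2.81 ± 0.11 at 24 h. The further rise from 1 to 4 h, 0.49 ± 0.08, was called, but without TMM scaling it was 0.15 and was not called. Irf1 then fell by 2.26 ± 0.09 (SE) from 4 to 12 h and by 0.54 ± 0.09 from 12 to 24 h. Among the 9 conditions the order of Irf1 means ran from RAW264.7 control over RAW264.7 LPS, BMDM control, IL-4, IL-13, 24 h, 12 h and 1 h to 4 h, a 106-fold span, and of the 8 neighbouring pairs only the RAW264.7 pair and the IL-4 and IL-13 pair overlapped.

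Irf2, which binds the same elements as IRF1 and is known mainly as its antagonist, moved in the same direction with a smaller size. It was at 55.3, 53.7 and 59.9 CPM in control, 93.5, 99.1 and 103 CPM at 1 h and 197, 236 and 212 CPM at 4 h. By 12 h it was at 80.3, 76.1 and 102 CPM and by 24 h at 44.0, 53.7 and 59.0 CPM, where it overlapped control. Its log2 fold change was 0.78 ± 0.13 (SE, adjusted p = 3.10e-06) at 1 h and 1.88 ± 0.12 (SE, adjusted p = 2.78e-18) at 4 h. At 12 h it was 0.57 ± 0.13 (SE, adjusted p = 2.72e-04), which was not called without TMM scaling (0.26), and at 24 h it was -0.11 ± 0.14 (SE, adjusted p = 0.523). Irf2 fell by 1.31 ± 0.12 from 4 to 12 h and by 0.68 ± 0.13 from 12 to 24 h.

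Irf1 and Irf2 changed by unequal amounts. In CPM per kb, Irf1 was at 11.1 against 7.61 for Irf2 in control, and at 567 against 29.1 at 4 h.

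Irf8, needed for the monocyte lineage and a partner of PU.1 and IRF1, showed a single peak. Its control values were 104, 87.9 and 95.1 CPM and its 1 h values 63.8, 78.5 and 76.4 CPM. At 4 h it was at 591, 558 and 557 CPM, and at 12 h at 37.0, 42.3 and 47.7 CPM. All 4 h samples lay above all others, and all 1, 12 and 24 h samples lay below control, the 24 h samples being at 60.1, 51.7 and 67.4 CPM. The log2 fold change was 2.51 ± 0.11 (SE, adjusted p = 9.77e-26) at 4 h, -1.22 ± 0.13 (SE, adjusted p = 4.59e-11) at 12 h and -0.68 ± 0.12 (SE, adjusted p = 4.96e-06) at 24 h. From 1 to 4 h Irf8 rose by 2.94 ± 0.11 and from 4 to 12 h it fell by 3.74 ± 0.12, the largest step down of any member. The early fall at 1 h, -0.43 ± 0.12 (SE, adjusted p = 0.0045), was not called by DESeq2, with a filter of at least 1 count, or without control replicate 1 or 3 or 1 h replicate 1 or 3, where the adjusted p reached 0.0649. The rise from 12 to 24 h, 0.55 ± 0.14 (SE, adjusted p = 0.00269), was lost in 5 alternatives, among them the fits without 12 h replicate 1 or 2 or 24 h replicate 3 (0.45 to 0.55). Dendritic cells also express Irf8. Their summed markers were highest at 12 and 24 h, but nearly all of that sum was Ccr7 (means of 18.2 and 19.0 CPM). The part of such cells in the Irf8 level was not tested.

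Irf5, linked to inflammatory cytokine expression, was at 187, 175 and 160.3 CPM in control and 259.7, 282 and 234 CPM at 1 h. It reached 495, 436 and 416 CPM at 4 h and was at 236, 251 and 275 CPM at 12 h and 246, 249 and 240.5 CPM at 24 h. None of the treated samples overlapped control. The log2 fold change was 0.54 ± 0.10 (SE, adjusted p = 2.01e-05) at 1 h and 1.31 ± 0.10 (SE, adjusted p = 3.35e-16) at 4 h. It was 0.50 ± 0.10 at 12 h and 0.49 ± 0.10 at 24 h, and neither was called without TMM scaling (0.18 and 0.26). Irf5 fell by 0.81 ± 0.10 from 4 to 12 h.

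Irf3, the constitutive member that starts type I interferon transcription once phosphorylated, varied least, by 2.28-fold between its lowest and highest condition means. It was at 41.3, 39.1 and 40.1 CPM in control, 63.8, 63.7 and 76.4 CPM at 1 h and 48.7, 43.5 and 49.2 CPM at 4 h. It was at 47.4, 42.9 and 44.7 CPM at 12 h, and the 24 h samples were at 50.8, 56.2 and 54.3 CPM. The 1 h samples were above all others. Irf3 rose at 1 h by 0.73 ± 0.14 (SE, adjusted p = 1.94e-05), and its change at 4 h was 0.17 ± 0.15 (SE, adjusted p = 0.34) and at 12 h 0.12 ± 0.15 (SE, adjusted p = 0.507). The fall from 1 to 4 h was -0.56 ± 0.14 (SE, adjusted p = 0.00102), and it was lost with DESeq2 and without 1 h replicate 3 (-0.46) or 4 h replicate 2 (-0.49). At 24 h the change was 0.42 ± 0.14 (SE, adjusted p = 0.00885). That call was lost in 12 alternatives, including each fit without a control replicate or without 24 h replicate 2 or 3, DESeq2 and other size factors.

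Irf7, the interferon-inducible factor that amplifies type I interferon expression, went from the second lowest level per kb to the highest. It was at 5.36, 5.42 and 7.48 CPM in control, from 10, 10 and 14 reads, and at 12.3, 15.4 and 14.2 CPM at 1 h. The 4 h samples were at 1188, 997 and 935 CPM, the 12 h samples at 1992, 1979 and 2228 CPM and the 24 h samples at 1998, 2084 and 2022 CPM. Each time up to 12 h was above the one before without overlap, and 12 and 24 h overlapped. The log2 fold change was 1.15 ± 0.26 (SE, adjusted p = 3.64e-04) at 1 h and 7.34 ± 0.15 (SE, adjusted p = 1.56e-38) at 4 h, a 162-fold change. At 12 h it was 8.34 ± 0.15 and at 24 h 8.36 ± 0.15, and between them the difference was 0.02 ± 0.09 (SE, adjusted p = 0.906). Most of the rise fell between 1 and 4 h (6.19 ± 0.13), with a further 1.00 ± 0.09 by 12 h.

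Irf9, the DNA-binding partner of STAT2 in type I interferon signalling, kept a plateau. It was at 32.7, 33.6 and 32.6 CPM in control and 42.5, 34.1 and 40.0 CPM at 1 h, where the change, 0.21 ± 0.16 (SE, adjusted p = 0.315), was not called. From 4 h it stood at 166, 137 and 141 CPM, then at 136, 151 and 150.1 CPM at 12 h and 117, 149 and 131 CPM at 24 h. All samples from 4 h on lay above all control and 1 h samples. The log2 fold change was 2.10 ± 0.14 (SE, adjusted p = 1.51e-18) at 4 h, 2.10 ± 0.13 at 12 h and 2.0 ± 0.13 at 24 h, and the steps from 4 to 12 h (-0.01 ± 0.11 (SE, adjusted p = 0.967)) and from 12 to 24 h (-0.10 ± 0.11 (SE, adjusted p = 0.58)) were not called.

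Irf4 left the measurable range. It had 4, 2 and 1 reads in the control samples, 7, 9 and 5 reads at 1 h, and 0, 0 and 1 reads at 4 h. The 12 h samples had 1, 0 and 0 reads and the 24 h samples 0, 0 and 0 reads. In CPM these were 2.15, 1.08 and 0.534 in control and 3.92, 5.79 and 2.53 at 1 h, where all 3 samples lay above control. A count of 0 over the 24 h group allows up to 3 reads, or 0.466 CPM, which is below each control sample, but for a single 24 h library the limit was 1.26 to 1.49 CPM, above 2 of the 3 control samples. When genes with as little as 1 read were admitted, the fall from 1 to 4 h was -3.58 ± 1.04 (SE, adjusted p = 0.00255) and the changes from control were 1.61 ± 0.67 (adjusted p = 0.0675) at 1 h and -4.20 ± 1.46 (adjusted p = 0.0134) at 24 h. With several samples at 0 these fitted changes depend on the prior count.

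The second question was what IL-4 and IL-13, which drive alternative activation, did to the family. With IL-4, 2 of 8 members were called, both higher, against 7.63% of all 9252 genes tested. With IL-13, 3 of 8 were called, all higher, against 10.1%. Between the cytokines 1 of 8 was called, against 0.108% or 10 genes. Irf4 is among the called members in each of these counts. It passed the filter here through the cytokine groups, where it is high, and failed it in the time course with the same controls. Its part in these counts is therefore a description and not a test. The 2 cytokine groups share the control samples, so their changes are given side by side only.

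Irf4 was at 9.95, 8.89 and 6.56 CPM with IL-4, from 19, 16 and 11 reads, and at 21.3, 28.1 and 22.8 CPM with IL-13, from 37, 55 and 45 reads. The highest control sample was at 2.15 CPM, so neither group overlapped control, and the lowest IL-13 sample lay above the highest IL-4 sample. The log2 fold change was 2.69 ± 0.48 (SE, adjusted p = 2.51e-05) with IL-4 and 4.17 ± 0.37 (SE, adjusted p = 3.18e-13) with IL-13. Both changes rest on 7 control reads, and without control replicate 1 they were 3.29 and 4.77. Tested directly, Irf4 was higher with IL-13 by 1.49 ± 0.25 (SE, adjusted p = 4.10e-04), a 2.80-fold difference. This direct difference was not called by DESeq2 (adjusted p = 0.0598), without IL-4 replicate 3 (1.34, adjusted p = 0.0202) or without IL-13 replicate 2 (1.35, adjusted p = 0.0112). Irf4 was left out where at least 10 reads were required in every sample.

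Irf1 was the only other member called with both cytokines. It was at 81.2, 82.8 and 75.7 CPM with IL-4 and 81.1, 93.6 and 73.9 CPM with IL-13, all above the control samples. The log2 fold change was 0.85 ± 0.13 (SE, adjusted p = 3.41e-06) with IL-4 and 0.89 ± 0.13 (SE, adjusted p = 6.31e-07) with IL-13, against 5.62 at 4 h of IFN-γ-LPS. Irf2 was at 79.1, 65.6 and 66.8 CPM with IL-4 and 87.4, 75.7 and 73.4 CPM with IL-13, and the cytokine groups overlapped each other but not control. Its log2 fold change was 0.31 ± 0.13 (SE, adjusted p = 0.106) with IL-4 and 0.46 ± 0.13 (SE, adjusted p = 0.00701) with IL-13, and the latter call was lost without any 1 control replicate, without IL-13 replicate 1 or 2, with DESeq2 and in a fit of the compared groups alone.

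The 5 other members were not called with either cytokine. Irf7 stayed between 3.67 and 11.3 CPM in these 6 samples and Irf9 between 26.1 and 39.9 CPM. Irf8 was at 92.7, 89.5 and 82.9 CPM with IL-4 and 85.1, 82.3 and 70.8 CPM with IL-13, and its log2 change with IL-13 was -0.29 ± 0.12 (SE, adjusted p = 0.0824). Irf5 was between 131 and 169 CPM and Irf3 between 37.4 and 52.3 CPM.

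At 12 h, when all 3 treatments could be set side by side at one time, 6 of 8 members differed between IFN-γ-LPS and IL-4, against 41.0% of all 10612 genes tested, and 6 of 8 between IFN-γ-LPS and IL-13, also against 41.0%. Irf7 was higher with IFN-γ-LPS by 8.29 ± 0.16 than with IL-4 and by 8.41 ± 0.16 than with IL-13, and Irf1 by 2.54 ± 0.10 and 2.49 ± 0.10. Irf9 was higher by 2.15 ± 0.14 and 1.98 ± 0.13, and Irf5 by 0.72 ± 0.10 and 0.74 ± 0.10. Irf8 was lower with IFN-γ-LPS, with differences of -1.07 ± 0.14 and -0.91 ± 0.14. Irf4 was lower too, with differences of -5.01 ± 0.73 and -6.51 ± 0.56, where 2 of the 3 IFN-γ-LPS samples had 0 reads, so these sizes depend on the prior count. Without 12 h replicate 1, which held the single read, they were -7.05 and -8.55, and without IL-4 replicate 3 the Irf7 difference from IL-4 was 8.88. Irf2 and Irf3 were not called. Irf4 passed the filter in this fit through groups where it is higher than with 12 h of IFN-γ-LPS. The library difference at Rn45s lies between these groups too.

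The third question was how RAW264.7 cells compare. Before treatment, 6 of 8 members differed between RAW264.7 and BMDM controls, while 65.6% of all genes did. Irf8 was at 25.3 and 30.4 CPM in RAW264.7 control (-1.78 ± 0.15 (SE, adjusted p = 1.09e-17)), and Irf1 at 22.6 and 19.9 CPM (-1.05 ± 0.16 (SE, adjusted p = 2.76e-08)). Both lay below every BMDM control sample. Irf5 (-0.58 ± 0.12) and Irf2 (-0.43 ± 0.15) were also lower, the latter lost in 12 alternatives, including each fit without a control replicate of either cell type. Irf7, at 19.8 and 25.7 CPM (1.89 ± 0.26 (SE, adjusted p = 2.12e-09)), and Irf9, at 44.8 and 54.0 CPM (0.58 ± 0.16 (SE, adjusted p = 0.00103)), were higher in RAW264.7 cells. Without RAW264.7 control replicate 2 the Irf9 difference was 0.44 and was not called.

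After 4 h of LPS, 4 of 8 members were called in RAW264.7 cells, all higher, against 27.9% of all 9406 genes tested. Irf7 rose from the control values above to 97.6 and 93.9 CPM, by 2.11 ± 0.15 (SE, adjusted p = 4.16e-44), and Irf9 to 109 and 112 CPM, by 1.20 ± 0.12 (SE, adjusted p = 5.51e-21). Irf8 rose to 42.6 and 51.3 CPM, by 0.80 ± 0.16 (SE, adjusted p = 5.76e-06), and Irf5 from 113 and 119.9 to 152 and 161 CPM, by 0.46 ± 0.10 (SE, adjusted p = 1.63e-05). The 2 groups did not overlap for these 4, nor did they for Irf2 and Irf4, which were not called. With 2 samples in each group, lack of overlap is therefore not by itself a sign of a change. The share of all genes without overlap was not computed. DESeq2 did not call Irf8 (adjusted p = 0.0204) or Irf5 (adjusted p = 0.0106), and Irf8 was not called without LPS replicate 2 (0.66). Irf5 was not called without TMM scaling (0.28).

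Irf1, the member that rose most at 1 h in BMDMs, was at 24.3 and 21.8 CPM with LPS in RAW264.7 cells, overlapping its control, and its change was 0.15 ± 0.20 (SE, adjusted p = 0.591). Irf2 was at 42.7 and 40.6 CPM in control and 35.8 and 39.9 CPM with LPS, and Irf3 at 26.7 and 33.0 and 31.1 and 32.6 CPM. Irf4, at 3.12 and 2.90 CPM in control and 5.57 and 7.97 CPM with LPS, showed 1.21 ± 0.42 (SE, adjusted p = 0.0135) and missed the threshold.

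The 4 h responses differed between the settings for 6 of 8 members, against 25.0% of all genes. The BMDM response exceeded that of RAW264.7 by 5.56 ± 0.23 (SE, adjusted p = 5.13e-33) for Irf1 and by 5.33 ± 0.28 (SE, adjusted p = 2.31e-26) for Irf7. For Irf2 the excess was 2.07 ± 0.21 (SE, adjusted p = 1.75e-13), for Irf8 1.81 ± 0.20 (SE, adjusted p = 9.45e-12) and for Irf5 0.94 ± 0.16 (SE, adjusted p = 1.22e-06). For Irf9 it was 1.00 ± 0.20 (SE, adjusted p = 5.15e-05), not called without TMM scaling (0.55). For Irf3 it was 0.13 ± 0.24 (SE, adjusted p = 0.743). Irf4 alone had a difference in the other direction, -3.12 ± 1.24 (SE, adjusted p = 0.0444), which was not called and rests on 1 read in the 4 h BMDM samples. The BMDMs had received IFN-γ with LPS and RAW264.7 cells LPS alone, so cell type and stimulus cannot be told apart. BMDMs with LPS alone were not analysed here.

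**Figure D4:**
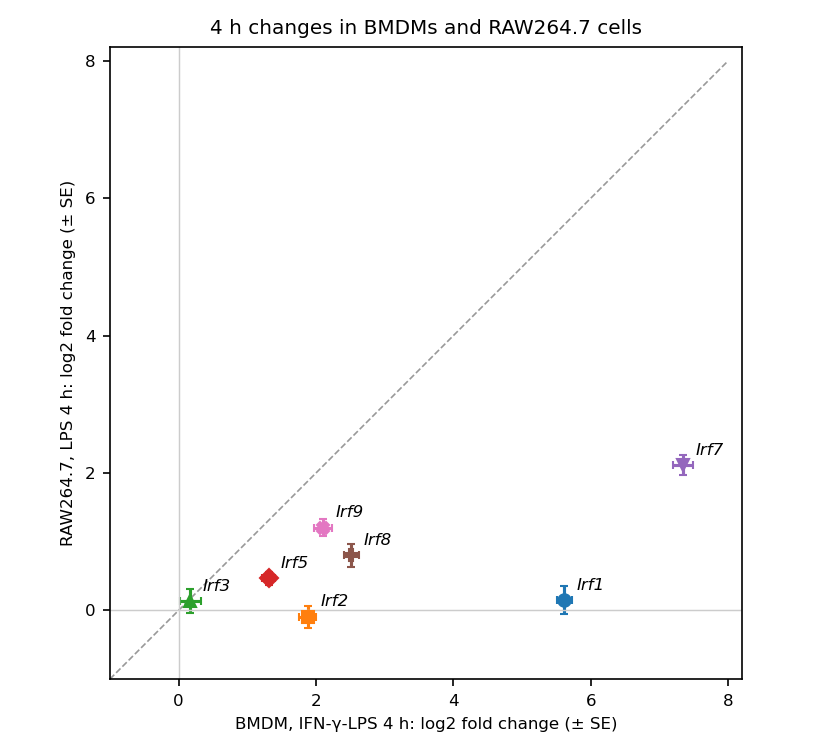
Log2 fold change (± SE) at 4 h in RAW264.7 cells with LPS (vertical, 2 samples per group) against BMDMs with IFN-γ-LPS (horizontal, 3 per group) for 7 IRFs; the dashed line marks equal change. Irf1 lies at 5.62 and 0.15, Irf7 at 7.34 and 2.11, and Irf3 near the line. Irf4, which was not tested in the time course, is not drawn.

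The genes around the family were described from 7 lists. Of 21 sensors, adaptors and kinases upstream of IRF3, IRF5 and IRF7, 15 were higher and 4 lower at 4 h of IFN-γ-LPS, where 51.5% of all genes were called, with a list median of 0.86 against -0.07 for all genes. Ifih1, the RNA sensor MDA5, changed by 6.13 ± 0.12 and Ddx58, the RNA sensor RIG-I, by 4.62 ± 0.32. Tank, a scaffold for the kinase TBK1, changed by 3.36 ± 0.13 and Tlr3, the receptor for double-stranded RNA, by 3.07 ± 0.18. The 4 that fell were Mavs, Tlr4, Slc15a4 and Irak1, named after their values were seen. In RAW264.7 cells 6 were higher and 2 lower of 20 tested, against 27.9% of all genes called, and the median was 0.17.

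Of 12 interferon receptors, Janus kinases and STAT partners, 10 were higher and none lower at 4 h, where 51.5% of all genes were called. The list median was 1.13 against -0.07 for all genes. Jak2, which serves the IFN-γ receptor, rose from 60.4 ± 4.46 to 1494 ± 62.0 CPM (SD, n = 3). Stat2 changed by 4.17 ± 0.13 and Il13ra1, a receptor chain for IL-13, by 1.63 ± 0.15. At 1 h Stat2 had fallen by 0.79 ± 0.19. With IL-4 and with IL-13, the 2 genes called were Jak2 (1.19 ± 0.11 and 1.68 ± 0.11) and Ifngr2 (0.45 ± 0.09 and 0.56 ± 0.09), named after their values were seen. Of all genes, 7.63% were called with IL-4 and 10.1% with IL-13.

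Of 10 DNA-binding partners and binding proteins of IRFs, 8 passed the filter. At 4 h, 5 of them were higher and 2 lower, where 51.5% of all genes were called. The median over those 8 was 2.08, against -0.07 for all genes. Batf2 and Batf, near the floor in control, passed the filter through the IFN-γ-LPS groups. Batf2, an AP-1 family protein that can act with IRFs, went from 1.25 ± 0.614 to 198 ± 8.98 CPM, Batf from 1.79 ± 0.815 to 40.8 ± 6.42 CPM and Trim21, a ubiquitin ligase for several IRFs, from 12.2 ± 4.79 to 175 ± 17.5 CPM. Irf2bp2, a corepressor that binds IRF2, went the other way, from 132 ± 9.96 CPM to 12.6 ± 7.64 CPM at 4 h (-3.46 ± 0.21 (SE, adjusted p = 7.73e-19)), and was back at 117 ± 7.33 CPM at 12 h (3.24 ± 0.21 against 4 h). With both cytokines, Batf3, a partner of IRF4 and IRF8, rose by 3.31 ± 0.47 with IL-4 and 4.06 ± 0.42 with IL-13, and was named after its values were seen.

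Of 5 type I interferon genes only Ifnb1, the IRF3 and IRF7 target interferon-β, passed the filter. Ifnb1 had 0 reads in control, 67.2 ± 20.5 CPM at 1 h and 22.9 ± 4.19 CPM at 4 h, and only 1.02 ± 0.915 CPM was left at 12 h. Its fall from 4 to 12 h was -4.40 ± 0.57 (SE, adjusted p = 4.31e-07), so the Ifnb1 level was past its peak when Irf7 was at its highest.

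All 15 known targets of IRF3, IRF7 and IRF9 were higher at 4, 12 and 24 h, and 12 were at 1 h. The share of all genes called was 51.5, 47.3 and 45.2% at 4, 12 and 24 h and 26.0% at 1 h. Only 2 of the 15 passed the filter in the cytokine set, which has the same controls. The others passed here through the IFN-γ-LPS groups where they are high, so these counts are a description and not a test. The list median was 5.14 at 1 h and 9.86 at 4 h, and it then stood at 9.74 (12 h) and 8.81 (24 h), while the all-gene median lay between -0.07 and 0.02 at these times. Where a gene is near 0 in control, the size of its change depends on the prior count. Mx1, an antiviral GTPase, was at 1691 ± 142 CPM at 4 h, Oasl1 at 1161 ± 57.4 CPM, and the chemokines Cxcl10 and Ccl5 at 2124 ± 67.3 and 2818 ± 493 CPM, each from under 1 CPM in control. Cxcl10 was at 187 ± 1.92 CPM by 24 h, whereas Ccl5 was at 5704 ± 187 CPM. In RAW264.7 cells all 14 targets tested were higher, against 27.9% of all genes called, with a median of 3.31. Ccl5 had 0 reads in RAW264.7 control and passed the filter there through the LPS group.

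All 16 known targets of IRF1 and IRF8 were higher at 4, 12 and 24 h, and 11 were at 1 h. Of all genes, 51.5, 47.3 and 45.2% were called at 4, 12 and 24 h and 26.0% at 1 h. In the cytokine set, with the same controls, 8 of the 16 passed the filter. The rest passed here through the IFN-γ-LPS groups where they are high, so these counts too are a description and not a test. Il27, a cytokine subunit gene, was at 0 in control, 2343 ± 217 CPM at 4 h and 181 ± 15.4 CPM at 12 h, and so peaked at 4 h as Irf8 did. Il12b, the p40 subunit of IL-12, rose further to 5239.7 ± 1469.5 CPM at 12 h from 3109.7 ± 192 at 4 h, while Irf8 fell. Nos2, the inducible nitric oxide synthase, was at 0 in control and 446 ± 69.5 CPM at 4 h, and the chemokine Cxcl9 was at 1781 ± 249.7 CPM. In RAW264.7 cells, 8 of the 16 passed the filter, with 3 higher (Nos2, Ebi3 and Il27) and Casp1 lower, against 27.9% of all genes called. Nos2 and Il27, at 0.173 and 0 CPM in RAW264.7 control, passed through the LPS group. Cxcl9 and Il12b were at 0 there in all 4 samples.

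Of 8 alternative activation genes tied to IRF4, 5 passed the filter with the cytokines and 4 were higher with each, against 7.63% (IL-4) and 10.1% (IL-13) of all genes called. Only 3 passed in the time course, with the same controls. Arg1 and Pdcd1lg2, at 0 and 0.359 CPM in control, passed through the cytokine groups where they are high. These counts are therefore a description and not a test. Chil3, a chitinase-like protein, went from 5.01 ± 1.52 CPM to 715 ± 43.4 CPM with IL-4 and 1384 ± 14.2 CPM with IL-13. The mannose receptor Mrc1 went from 84.4 ± 6.85 to 465 ± 8.14 and 596 ± 49.8 CPM. Pdcd1lg2, the ligand PD-L2, was at 14.8 ± 4.96 and 32.0 ± 3.84 CPM, and arginase 1, Arg1, rose from 0 to 27.4 ± 1.85 and 39.0 ± 7.03 CPM. In the direct test Chil3 (0.95 ± 0.08) and Pdcd1lg2 (1.08 ± 0.21) were higher with IL-13, as Irf4 was. With IFN-γ-LPS, Mrc1 was at 5.02 ± 0.885 CPM at 24 h (-4.07 ± 0.20 against control).

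The genes most like each member were found by Pearson correlation of log2 CPM over all 25 samples, given as a description because the samples share conditions and library features. The closest to Irf1 were H2-DMa (r = 0.981), Clcf1 and Serpina3g (both 0.971). Clic4 was closest to Irf2 (0.950), followed by Gosr2 and Wac (both 0.938), and Plod1 to Irf3 (0.877), followed by Nfe2l2 (0.872) and Prr14 (0.870). For Irf4 they were Bcar3 (0.896), Tbc1d16 (0.868) and Tspan5 (0.862). For Irf5 they were Sp140 (0.953), Cx3cl1 (0.950) and Rffl (0.947). Irf7 was matched best by Shisa3 (0.983), Oas3 (0.981) and Xaf1 (0.980), Irf8 by Tbc1d1 (0.956), Sptan1 (0.920) and Map2k4 (0.914), and Irf9 by Usp18 (0.973), Abcc1 (0.972) and Rtp4 (0.970). Many genes reached 0.9 with some members, 175 with Irf7, 98 with Irf5, 87 with Irf9 and 83 with Irf1, but 25 did with Irf2, 7 with Irf8 and none with Irf3 or Irf4.

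The 4 h peak of Irf8 was also seen for Tbc1d1, which was at 92.0 ± 3.57 CPM in control and 498 ± 5.12 CPM at 4 h. Its 1 h mean was 105 ± 9.62 CPM, its 12 h mean 84.1 ± 10.3 CPM and its 24 h mean 90.4 ± 5.39 CPM, close to control at times when Irf8 was below control. Within the family, Irf7 and Irf9 had r = 0.959 and Irf1 and Irf5 r = 0.904, and Irf4 had a negative r with each of the other 7, from -0.18 with Irf3 to -0.77 with Irf7. For Irf2 and Irf8 r was 0.816.

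Across the 9 conditions, the order of Irf7 means ran from IL-13, BMDM control and IL-4, which overlapped, over 1 h, RAW264.7 control, RAW264.7 LPS and 4 h to 24 and 12 h, a 347-fold span. For Irf9 the IL-4, control, IL-13 and 1 h groups overlapped from neighbour to neighbour at the low end, RAW264.7 control and RAW264.7 LPS stood apart, and the 24, 12 and 4 h groups overlapped at the top. The Irf8 order put RAW264.7 control lowest and 4 h highest, and the 1 h, IL-13, IL-4 and control groups overlapped from neighbour to neighbour. For Irf5 the IL-13, IL-4, RAW264.7 LPS and control groups overlapped, then the 24, 12 and 1 h groups, with RAW264.7 control below and 4 h above all. For Irf2, 4 h stood above all other groups, and 4 of 8 neighbouring pairs overlapped. The Irf4 order placed 24, 12 and 4 h lowest and IL-13 alone highest, above IL-4 without overlap.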

How the data were processed

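RNA-seq libraries of 25 samples in 9 conditions were analysed, with groups from the labels. Per the labels and methods, the authors trimmed reads with Trimmomatic 0.33 and aligned them to mm10 with STAR 2.5.1, and the deposited values are raw counts per gene symbol, one file per sample, unstranded and for each strand. The sense column was used. Rows that name no gene were left out (no-feature reads were 62.7 to 69.1% of the sense assignment), as was Rn45s, which held 20.1 to 39.8% of gene counts. Antisense reads made up 0.0386 to 0.122% of Rn45s reads on both strands in the control, 1, 4 and 12 h libraries, 0.00603 to 0.0214% in the 24 h, IL-4 and IL-13 libraries and 0.0199 to 0.0283% in RAW264.7 libraries.

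Counts were fitted in R 4.3.3 with edgeR 4.0.16 (robust quasi-likelihood F test, TMM, filterByExpr by group) in 4 fits: time course, cytokines, RAW264.7 and all samples for comparisons between these sets. P-values were adjusted by Benjamini-Hochberg over all genes tested, and the SE was the size of the log2 fold change divided by √F. Printed CPM use 1 set of TMM factors (0.717 to 1.32) over all samples. Scripts were tested on simulated data. P-values set a difference between group means against the spread between these samples, as estimated in each fit. With 1 to 3 reads a level is little more than detection.

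The members and lists were chosen with earlier results of these data known. Named genes are the members, the 3 genes most correlated with each (log2 CPM, prior count 2) and up to 4 called genes per list by size at 4 h (IL-13 for the IRF4 list), of which 1 is not reported here. Exon lengths are from GENCODE. Alternatives were DESeq2 1.42.0, other size factors, no TMM, Rn45s kept, filters of 1 and 10 counts, unstranded counts, the study's fold cutoffs, a replicate block, other sample sets and each sample left out. No replicate pair of 23 was within sampling noise (chi-square per degree of freedom 1.30 to 4.53).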

Additional observations from a re-analysis of the deposited data

Results flagged for a closer look

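The 4 h response differed between BMDMs with IFN-γ-LPS and RAW264.7 cells with LPS by the test of the difference itself for 6 members, and for these 6 the log2 change was higher in BMDMs. The difference for Irf4 was in the other direction and missed the threshold. The differences were 5.56 for Irf1, 2.07 for Irf2, 0.94 for Irf5, 5.33 for Irf7, 1.81 for Irf8 and 1.00 for Irf9 on the log2 scale. Cell type and stimulus cannot be told apart in them. The effect of IL-13 on Irf4 exceeded that of IL-4 by 1.49, higher in all 3 IL-13 samples than in any IL-4 sample. Antisense reads, which no comparison used, were above control for Irf1 at 1 h, where the lowest of the 3 samples had 8 antisense reads against at most 1 in control. Sense reads of Irf1 numbered 2639, 2528 and 3221 in those samples and 91, 83 and 72 in control, so they rose too. Antisense reads as a share of sense reads were not tested. With 2 or 3 samples in each group, no sample was examined for standing apart from its group by a formal rule.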

How the results depend on the processing

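Of 113 member comparisons tested, recomputed under alternatives to 2848 values, 2789 kept their call and direction, 58 lost the call, 1 gained it (Irf3, lower in RAW264.7 than in BMDM control when the compared groups were fitted alone, -0.45) and no called value changed sign; 50 uncalled values did. With fold cutoffs taken from the study, IFN-γ-LPS against control left 2, 6, 4 and 3 members called, in order of time. The log2 cutoff was 1 here, the study's value for transcription factors, and also in the comparisons below where no other is named. For the steps from 1 to 4, 4 to 12 and 12 to 24 h the counts were 4, 3 and 0. IL-4 and IL-13 kept 2 each at the study's cutoff of 0.7 for these cytokines, and 1 remained between them at 0.7. The 12 h IFN-γ-LPS group kept 5 against IL-4 and 4 against IL-13. RAW264.7 LPS kept 1 (Irf7) at the study's cutoff of 2 for these cells, and Irf9, at 1.20, lay between 1 and 2. That count is therefore not comparable with the BMDM counts at a cutoff of 1. RAW264.7 against BMDM control kept 3 and the difference in 4 h response 4. The share of all genes past the same cutoffs is not given here, so these counts cannot be set against it. With at least 10 counts in every sample, which removes Irf4, 1 was called for IL-4 and 0 for IL-13 against IL-4. With DESeq2, 0 were called for IL-13 against IL-4 and 2 for RAW264.7 LPS, where its calls over all genes also fell, to 0.0271% and 11.6%. Leaving out 1 sample gave 0 to 1 for IL-13 against IL-4, with 0 without IL-4 replicate 3 or IL-13 replicate 2. Leaving out a RAW264.7 sample leaves 1 in its group, assumed to vary like the others. The calls named beside the results as lost were lost for causes that were not tested.

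Replicate numbers did not pair the samples (mean correlation of same-numbered deviations 0.0201 in the time course, 0.00728 in the cytokine set and 0.0107 in RAW264.7). A fit with the replicate number as a block changed 1 member call, Irf2 in RAW264.7 against BMDM control (-0.41). Levels below about 2 CPM rest on 1 to 4 reads, which limits Irf4 in the control, 4, 12 and 24 h BMDM groups.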
